A study of Mus musculus with 12 samples.

Results

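Type I interferon signalling in the mouse mammary tumour line PYMT-R221A was followed through 8 genes: Ifnb1 for the ligand, Ifnar1 and Ifnar2 for the receptor, Jak1 and Tyk2 for the receptor's kinases, and Stat2, Irf9 and Irf7 for the transcription factors. They were chosen by gene symbol as parts of 1 pathway, with earlier results of these data known, as were the gene lists used further on. Their counts beside the shares of all genes are therefore descriptive. The members of this set are 8 of the 55335 genes in the count table. Of the 8, 7 were among the 14935 genes with enough reads to test, and Ifnb1 was not.

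RNA sequencing of polyadenylated RNA gave 12 libraries in 4 groups of 3: wild-type cells labelled control, cells given KCC-07 at 40 µM, cells transfected with a scramble siRNA, and cells transfected with an siRNA against Mbd2 (siMBD2). MBD2 is a protein that binds methylated DNA, and KCC-07 is known as an inhibitor of that binding. The comparisons ask what the compound changes against control and what the knockdown changes against scramble siRNA. Scramble was also set against control, a comparison that takes in everything that differs between transfected and wild-type cells. All groups are 1 cell line. The labels call the replicates biological without saying whether they were separate cultures, so p-values measure the spread between these samples, and neither the vehicle nor the length of treatment is given in the sources used here.

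In this pathway, interferon beta binds a receptor made of the IFNAR1 and IFNAR2 chains, and the kinases TYK2 and JAK1, which sit on those chains, become active. They phosphorylate STAT proteins, among them STAT2, which joins IRF9 within ISGF3, a factor that enters the nucleus and switches on antiviral genes through a DNA motif called the interferon-stimulated response element (ISRE). Several of those genes feed back into the pathway: STAT2, IRF9 and IRF7 are themselves made in larger amounts, and IRF7 drives further interferon genes.

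Library totals ran from 25831299 counts (KCC-07 replicate 3) to 33956792 counts (control replicate 3), and no 2 replicates held the same values. Levels are given as CPM, which is read counts scaled to a common library size (here with TMM). Mbd2 read 75.8, 83.2 and 72.5 CPM with scramble but 35.7, 34.7 and 30.6 CPM with siMBD2. It fell by 1.20 on the log2 scale (SE 0.0867, edgeR adjusted p = 0.000197), and with KCC-07 its fold was 0.998 (adjusted p = 0.991). Replicate 3 differed from replicates 1 and 2 within every group, with the highest mitochondrial share (2.70% to 3.90%, against 1.45% to 2.32% in the other libraries), whose part in the results was not tested. The interferon-regulated Irf1 was at 99.6 and 87.7 CPM in replicate 3 of control and KCC-07, against 1054 to 1352 CPM in replicates 1 and 2, and at 212 and 194 CPM in replicate 3 of scramble and siMBD2, against 529 to 639 CPM. Results that rest on replicate 3 are therefore given with and without it. Summed markers of leukocytes came to 1.12 to 7.95 CPM over all libraries, with Adgre1 and Siglech at 0 in every group, while mammary epithelial markers summed to 1602 to 1968 CPM. Summed fibroblast markers were lower with KCC-07 (98.9 to 150 CPM) than in control (169 to 202 CPM), with Thy1 at 0 in every group. Of 8 epithelial markers 3 rose with KCC-07 (Cdh1, Krt18 and Epcam). Only these 3 had a log2 change above 0, and the median of the 8 was -0.10. The part of these markers in the KCC-07 results was not tested. In bulk RNA, fewer cells expressing a gene and less RNA per cell cannot be told apart.

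The genes' upstream stretches are shown here because the ISRE is the letter pattern through which ISGF3 acts. Sequences are from RefSeq on GRCm38.p6, in which all 8 genes matched, and windows ran from 250 bases before to 50 bases after each listed transcript start. The motifs searched on both strands were the ISRE core GAAANNGAAA, the shorter IRF motif AANNGAAA that lies inside it, and the STAT motif TTCNNNGAA. The ISRE core was in 3.44% of all 32851 windows, the shorter motif in 23.9% and the STAT motif in 8.30%. Capitals mark matches to the ISRE core or to the shorter IRF motif, on either strand. Each line is 5′ to 3′ along the gene's own strand.
Stat2, chr10:128270248-128270497, plus strand: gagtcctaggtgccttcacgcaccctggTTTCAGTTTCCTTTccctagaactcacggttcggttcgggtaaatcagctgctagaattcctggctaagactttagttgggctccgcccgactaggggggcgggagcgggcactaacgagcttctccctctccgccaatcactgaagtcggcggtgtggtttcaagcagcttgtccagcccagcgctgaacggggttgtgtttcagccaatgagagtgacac
Irf7, chr7:141266482-141266674, minus strand: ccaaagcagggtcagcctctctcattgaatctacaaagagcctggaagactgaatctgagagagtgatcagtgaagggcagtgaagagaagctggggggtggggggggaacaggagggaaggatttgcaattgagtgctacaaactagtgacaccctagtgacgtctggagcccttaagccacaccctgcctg
Ifnb1, chr4:88522795-88523044, minus strand: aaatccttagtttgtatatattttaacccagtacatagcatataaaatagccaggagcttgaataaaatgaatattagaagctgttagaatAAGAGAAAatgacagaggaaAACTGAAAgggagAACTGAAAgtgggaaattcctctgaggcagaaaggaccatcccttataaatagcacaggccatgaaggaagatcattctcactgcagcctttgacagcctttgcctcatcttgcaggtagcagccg

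Stat2 was the member with an ISRE core in its window, as GAAACTGAAA on the opposite strand at -222, counted in bases from the transcript start. Ifnb1 held 3 matches to the shorter IRF motif, at -159, -139 and -126, and no ISRE core. Irf7 is shown as the 193 bases outside any annotated exon, and neither IRF motif was found in its window. The 2 windows of Irf9 lie wholly or partly in its own exons and are not printed, and they held no match to the 3 motifs. Ifnar1 and Ifnar2 each held 1 match to the STAT motif, and Jak1 and Tyk2 held no match to any of the 3. Among 25 genes of a list of known ISGF3 targets with a window, 12 (48.0%) held the ISRE core, beside 3.99% of all 27025 genes with a window. Ifit3 and Ifit3b are counted separately there, as are Oas1a and Oas1g, although each pair has the same 30 bases around its core. The letters around the core are given below for Stat2 and for 5 of those targets, 30 bases each on the strand of the motif, with the core in capitals.
Stat2, chr10:128270266-128270295, minus strand: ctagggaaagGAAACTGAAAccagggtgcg
Ifit1, chr19:34640794-34640823, minus strand: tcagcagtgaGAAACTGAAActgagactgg
Isg15, chr4:156200865-156200894, minus strand: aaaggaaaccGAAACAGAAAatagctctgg
Oas1a, chr5:120907520-120907549, minus strand: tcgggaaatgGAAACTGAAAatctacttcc
Rsad2, chr12:26456553-26456582, plus strand: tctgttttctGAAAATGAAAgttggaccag
Bst2, chr8:71537577-71537606, minus strand: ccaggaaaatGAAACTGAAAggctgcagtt

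Stat2 shares the 10 letters of its core with Ifit1, Oas1a and Bst2, and Isg15 and Rsad2 carry other letters at the free positions.

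Compared per kilobase of exon, the pathway in control cells ran from abundant receptor and kinase RNA down to little Irf7 RNA and no Ifnb1 read. Jak1 was highest at 15.8 ± 1.33 CPM per kilobase (SD, n = 3), followed by Ifnar2 at 12.7 ± 4.23 and Ifnar1 at 12.7 ± 1.46, with ranges of neighbours that overlapped. Tyk2 followed at 5.20 ± 0.542, Stat2 at 1.93 ± 0.344, Irf9 at 1.30 ± 0.153 and Irf7 at 0.563 ± 0.202 CPM per kilobase, with no overlap between neighbours from Ifnar1 downwards. The order was the same with KCC-07, except that Ifnar1 and Ifnar2, whose ranges overlapped, changed places. With scramble, Tyk2 (4.24 ± 0.242), Irf7 (3.63 ± 4.51), Irf9 (3.30 ± 2.67) and Stat2 (1.98 ± 0.0786) had overlapping neighbours, below Jak1, Ifnar1 and Ifnar2 in mean level. In the siMBD2 group Irf7 had the highest mean, 18.7 ± 19.4 CPM per kilobase, although its range overlapped that of Jak1 (16.8 ± 0.278).

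**Figure D1:**
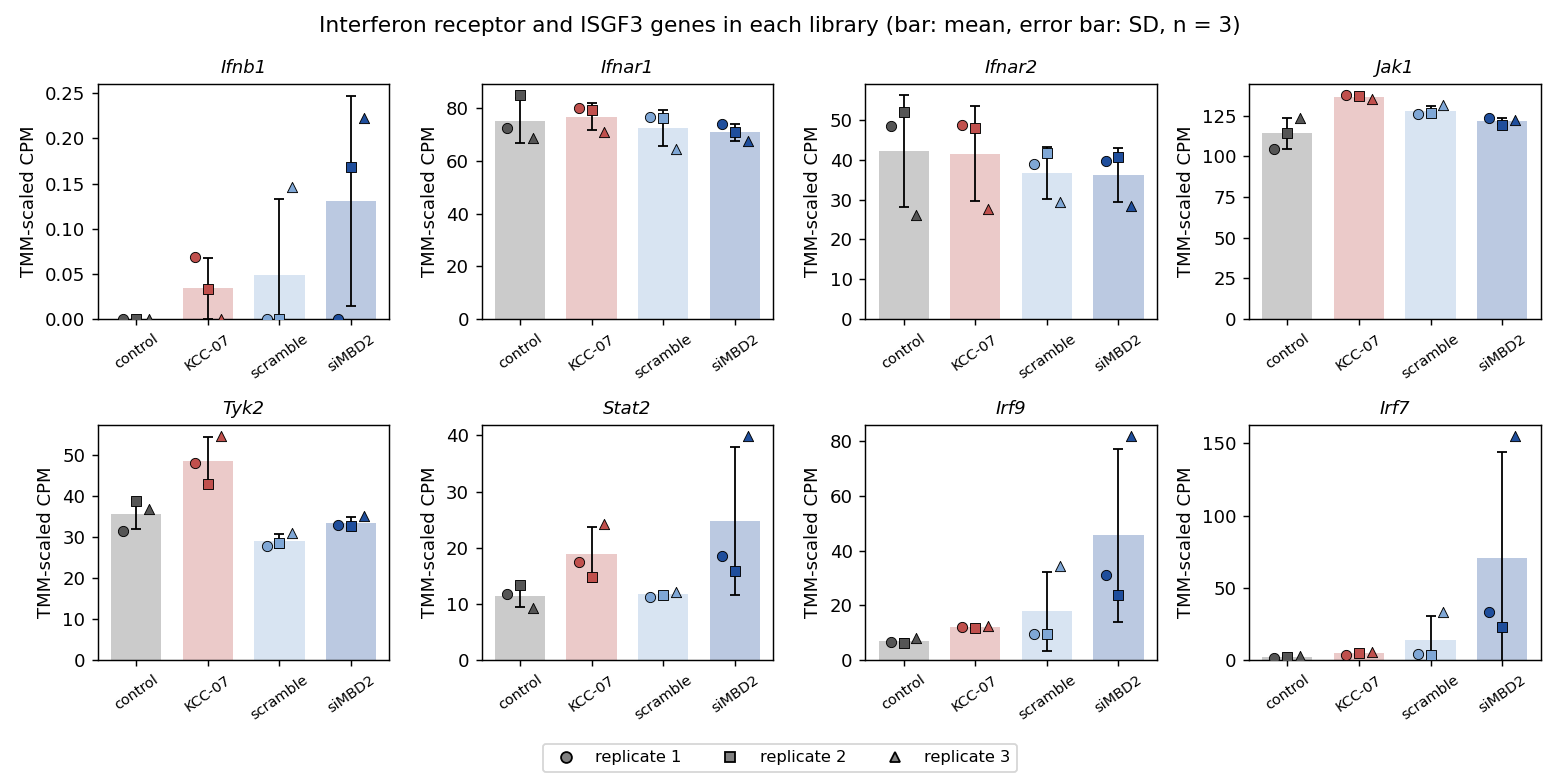
TMM-scaled CPM of the 8 genes (y axis, from 0 in each panel) in control, KCC-07, scramble and siMBD2 cells, with bars at the mean, error bars at 1 SD (n = 3, cut at 0) and 1 point per library shaped by replicate number. Irf9 and Irf7 are lowest in control and highest in siMBD2 replicate 3 (81.8 and 155 CPM), while Ifnar1 stays between 64.5 and 85.1 CPM in all libraries.

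Ifnb1, the gene of the ligand, was barely read. The 3 control libraries held 0 reads each, the KCC-07 libraries 2, 1 and 0, the scramble libraries 0, 0 and 4, and the siMBD2 libraries 0, 5 and 7. Summed over a group these were 0 reads (exact 95% Poisson interval 0 to 3.69), 3 (0.619 to 8.77), 4 (1.09 to 10.2) and 12 (6.20 to 21), intervals that cover counting error only. The level of 3 counts that 0 reads still allow corresponds to 0.0870 to 0.119 CPM per library. In an edgeR fit without a filter on low counts, the adjusted p was 0.483 for KCC-07 against control, 1 for siMBD2 against scramble and 0.387 for scramble against control. The 20 other interferon genes in the table, mostly of the alpha family, together had 5 reads in control, 4 with KCC-07, 0 with scramble and 11 with siMBD2, and none passed the filter. Of those 11 reads, Ifna4 held 6.

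The receptor chains did not pass the test in any comparison, with or without the block, when all libraries were used. Ifnar1, the chain that carries TYK2 (chr16:91485238-91507441, plus strand), stood at 72.3, 85.1 and 68.6 CPM in control, 80.0, 79.4 and 70.9 with KCC-07, 76.8, 76.2 and 64.5 with scramble, and 74.1, 71.0 and 67.5 with siMBD2. The ranges of all groups overlapped. Its log2 change was 0.03 with KCC-07 (95% interval -0.21 to 0.27, adjusted p = 0.899) and -0.03 with siMBD2 (-0.27 to 0.21, adjusted p = 1). Ifnar2, the chain with the main docking sites for the STATs (chr16:91372783-91405589, plus strand), stood at 48.7, 52.1 and 26.2 CPM in control, 48.8, 48.1 and 27.7 with KCC-07, 39.1, 41.8 and 29.3 with scramble, and 39.7, 40.8 and 28.5 with siMBD2. Within each group replicate 3 was the lowest library, at 0.520, 0.572, 0.726 and 0.707 times the mean of replicates 1 and 2 in that order of groups. Its log2 change was -0.03 with KCC-07 (-0.66 to 0.61, adjusted p = 0.965) and -0.02 with siMBD2 (-0.65 to 0.62, adjusted p = 1). With the replicate number as a block, which takes the step between replicates out of the spread, the adjusted p-values of Ifnar2 were 0.922 and 0.965. Against control, scramble cells had an Ifnar2 log2 change of -0.21 (adjusted p = 0.662), and without the libraries of replicate 3 Ifnar2 fell by 0.31 there (adjusted p = 0.00725). Part of Ifnar2 overlaps the exons of Gm21970 on the same strand, so reads there could have been assigned to either gene.

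Both kinases were higher with KCC-07. Tyk2 (chr9:21104068-21131243, minus strand) stood at 31.6, 38.8 and 36.8 CPM in control and at 48.1, 42.9 and 54.7 CPM with KCC-07, every treated library above every control library. It rose by 0.44 on the log2 scale (SE 0.112, adjusted p = 0.0416, edgeR quasi-likelihood test), a fold of 1.36, and was higher in 3 of 3 replicate pairs. Tyk2 was the 1 of 7 tested members called in this comparison, in which 5.65% of all genes were called, 3.58% higher and 2.08% lower. By unadjusted p below 0.05 there were 3 members, where 3744 of 14935 genes had such a p. DESeq2 called 2 members (Jak1 and Tyk2), where it called 1874 of all genes. The call was lost when single libraries were left out, with an adjusted p of 0.122 and 0.0624 without replicate 1 or 2 of control, and of 0.0718 and 0.0839 without replicate 1 or 3 of KCC-07. It was also lost without the filter on low counts (0.0638) and in a fit of these 2 groups alone (0.257, or 0.107 with the block). With the replicate block its adjusted p was 0.0172, and 0.149, 0.0524 and 0.0493 when replicate numbers 1, 2 and 3 were dropped in turn. Tyk2 shares 554 exon bases with 1700084C06Rik on the opposite strand, and the strand setting of the counting is not given in the sources used here.

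Jak1 (chr4:101152367-101265282, minus strand) stood at 105, 114 and 124 CPM in control and at 138, 137 and 135 CPM with KCC-07, again without overlap. Its log2 change of 0.26 (SE 0.0752) had an adjusted p of 0.0650, and with the replicate block it rose by 0.26 (adjusted p = 0.0324). That blocked p became 0.201, 0.202 and 0.0138 without replicate numbers 1, 2 and 3, and was 0.206 in a blocked fit of these 2 groups alone. With siMBD2 neither kinase passed the test in the fits of all 4 groups. Jak1 was at 126, 127 and 132 CPM with scramble and at 123, 120 and 122 CPM with siMBD2, a log2 change of -0.07 (adjusted p = 1). Tyk2 was at 27.8, 28.5 and 31 CPM with scramble and at 32.9, 32.7 and 35.1 CPM with siMBD2, a log2 change of 0.21 (adjusted p = 1). In a blocked fit of scramble and siMBD2 alone Tyk2 passed (0.21, adjusted p = 0.0136), where 2753 of 14935 genes did. The groups did not overlap for either gene, which was so for 22% of all genes in that comparison (11.6% lower and 10.3% higher).

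Among the transcription factors, Irf9, Irf7 and Stat2 were higher in every replicate pair with KCC-07 and in every pair with siMBD2. The share of all genes for which this held was not counted. The DNA-binding subunit gene Irf9 (chr14:55603571-55610030, plus strand) stood at 6.62, 6.43 and 7.94 CPM in control and at 12.2, 11.6 and 12.6 CPM with KCC-07. The scramble libraries held 9.46, 9.55 and 34.4 CPM and the siMBD2 libraries 30.9, 23.9 and 81.8 CPM. The KCC-07 libraries lay above all control libraries, whereas scramble replicate 3 lay above siMBD2 replicates 1 and 2.

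Irf7 (chr7:141262706-141266481, minus strand), which drives interferon alpha genes, stood at 1.38, 2.10 and 2.90 CPM in control and at 3.79, 4.69 and 5.76 CPM with KCC-07. The scramble libraries held 4.21, 3.49 and 33.4 CPM and the siMBD2 libraries 33.4, 23.0 and 155 CPM. The KCC-07 and control groups did not overlap, and scramble replicate 3 was level with siMBD2 replicate 1. Replicate 3 was 8.67 times the mean of replicates 1 and 2 with scramble and 5.50 times with siMBD2, against 1.67 times in control and 1.36 times with KCC-07. Irf7 overlaps Phrf1 on the opposite strand over 45 exon bases, and Irf9 overlaps Rnf31 on the same strand over 123.

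For KCC-07 against control without a block, Irf9 had a log2 change of 0.79 (SE 0.523, adjusted p = 0.370) and Irf7 of 1.16 (SE 0.926, adjusted p = 0.468), so neither passed the test. Pair by pair, Irf9 was 1.84, 1.80 and 1.59 times its control level and Irf7 2.75, 2.24 and 1.99 times. With the replicate block both rose, Irf9 by 0.80 (adjusted p = 0.00412) and Irf7 by 1.18 (adjusted p = 0.00524). With the block 4 of 7 members were called (Jak1, Tyk2, Irf9 and Irf7), all higher, where 12.8% of all genes were called higher, 9% lower and 21.8% in either direction. Left out in turn, replicate numbers 1, 2 and 3 gave blocked adjusted p-values for Irf9 of 0.0495, 0.0651 and 0.00685 and for Irf7 of 0.0561, 0.0694 and 0.00443. In a blocked fit of control and KCC-07 alone, 0 members passed, with adjusted p-values of 0.0507 for Irf9 and 0.0537 for Irf7. Without the libraries of replicate 3 and without a block, 4 of 7 members also rose, where 2250 of 14935 genes rose and 1583 fell. The values there were 0.87 for Irf9 (adjusted p = 0.00321) and 1.30 for Irf7 (adjusted p = 0.00951).

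For siMBD2 against scramble without a block, Irf9 had a log2 change of 1.36 (SE 0.514, adjusted p = 0.819) and Irf7 of 2.36 (SE 0.856, adjusted p = 0.773). No member passed the test, where 0.0402% of all genes did. By unadjusted p below 0.05 there were 3 members, where 786 of 14935 genes had such a p. The DESeq2 Wald test also called 0 members, where it called 85 of all genes. Pair by pair, Irf9 was 3.27, 2.51 and 2.38 times its scramble level and Irf7 7.93, 6.60 and 4.64 times. With the replicate block both rose, Irf9 by 1.42 (adjusted p = 0.00107) and Irf7 by 2.60 (adjusted p = 0.000315), 2 of 7 members where 0.75% of all genes were called (0.422% higher and 0.328% lower). Irf7 remained called with any replicate number left out (blocked adjusted p = 0.0228, 0.0489 and 0.00280 without 1, 2 and 3), and Irf9 lost its call without replicate 2 (0.0341, 0.0851 and 0.00677). Without replicate 3 and without a block, Irf9 rose by 1.53 and Irf7 by 2.87, each with an adjusted p of 0.00147. Over all genes 82 of 14935 rose there and 80 fell.

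The size of the unblocked siMBD2 changes depended on single libraries of replicate 3. The log2 change of Irf7 was 4.19 without scramble replicate 3 and 1.05 without siMBD2 replicate 3, and that of Irf9 was 2.26 and 0.63. Neither gene passed the test in these fits. Summed leukocyte markers were at 1.35 to 2.30 CPM with scramble and 1.12 to 1.78 CPM with siMBD2, so these 2 groups overlapped in them.

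Stat2, the subunit that carries the activation domain of ISGF3 (chr10:128270559-128292849, plus strand), stood at 11.7, 13.3 and 9.25 CPM in control and at 17.5, 14.8 and 24.3 CPM with KCC-07. The scramble libraries held 11.3, 11.6 and 12.2 CPM and the siMBD2 libraries 18.6, 15.9 and 39.9 CPM, and both treated groups lay above their own controls. Its log2 change was 0.72 with KCC-07 (SE 0.307, adjusted p = 0.171) and 1.08 with siMBD2 (SE 0.308, adjusted p = 0.489), and with the block the adjusted p-values were 0.10 and 0.230. In a blocked fit of scramble and siMBD2 alone Stat2 passed (1.00, adjusted p = 0.0021), where 2753 of 14935 genes did. In total 5 of 7 members lay above control in every KCC-07 library (12.3% of all genes did, and 22.9% did not overlap in either direction), and 2 of 7 lay above scramble in every siMBD2 library (10.3% of all genes).

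**Figure D2:**
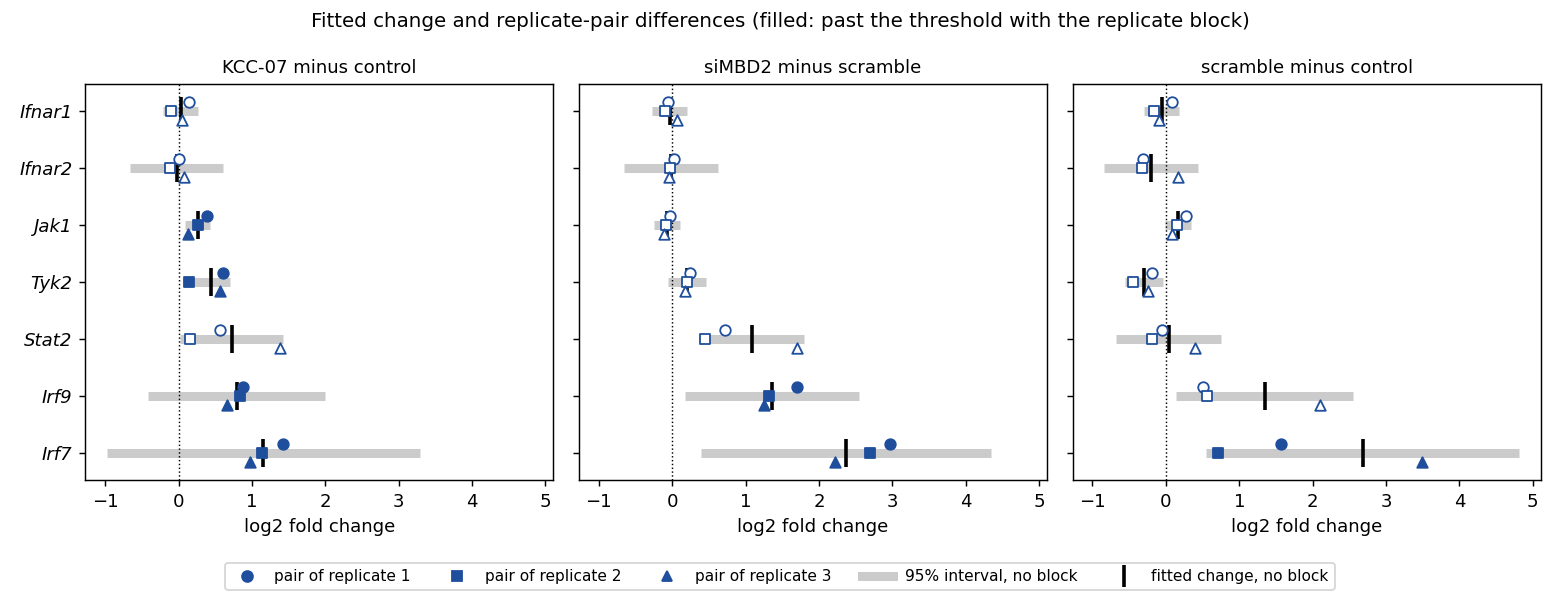
Log2 fold changes (x axis) of the 7 tested genes in KCC-07 minus control, siMBD2 minus scramble and scramble minus control, with black ticks at the fitted change, grey bars at its 95% interval without a block, and 1 point per replicate pair, filled where the gene passed the test with the replicate block. The pair differences of Irf7 with siMBD2 lie between 2.21 and 2.97, inside an unblocked interval of 0.39 to 4.34.

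The change of Irf7 was larger with the knockdown than with the compound when the replicate number was taken into account. The difference of the log2 changes (KCC-07 effect minus siMBD2 effect) was -1.21 without a block (adjusted p = 0.687) and -1.42 with it (adjusted p = 0.0161), 1 of 7 members where 6.9% of all genes were called (2.24% lower and 4.65% higher). Left out in turn, replicate numbers 1, 2 and 3 gave blocked adjusted p-values of 0.142, 0.178 and 0.0130. Without a block the difference was -3.04 without scramble replicate 3 and 0.11 without siMBD2 replicate 3. Without the libraries of replicate 3 and without a block, Irf7 (-1.57, adjusted p = 0.0283) and Jak1 (0.39, adjusted p = 0.0279) passed, where 10.6% of all genes did. For Irf9 the blocked difference was -0.62 (adjusted p = 0.0513) and for Jak1 it was 0.34 (adjusted p = 0.0792). Without a block 0 members passed, where 0.656% of all genes did. Of the members 1 had an unadjusted p below 0.05, where 2174 of 14935 genes did. DESeq2 called 0 members, where it called 617 of all genes.

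Irf7 and Irf9 were also higher with scramble siRNA than in control. Against control, Irf7 had a log2 change of 2.68 (SE 0.924, adjusted p = 0.0900) and Irf9 of 1.35 (SE 0.525, adjusted p = 0.125), and every scramble library lay above every control library for both. The pair folds of Irf7 were 3.06, 1.66 and 11.5 and those of Irf9 1.43, 1.49 and 4.33, so replicate 3 showed the largest. No member passed the test without a block (8.79% of all genes did, 4.71% higher and 4.08% lower). Of the members 4 had an unadjusted p below 0.05, where 4062 of 14935 genes did. DESeq2 called Irf7, where it called 2299 of all genes. With a block shared by all groups Irf7 rose by 2.15 (adjusted p = 0.0315), 1 of 7 members where 13.8% of all genes were called (7.39% higher and 6.42% lower). The blocked adjusted p of Irf7 was 0.244, 0.119 and 0.0144 without replicate numbers 1, 2 and 3. A blocked fit of these 2 groups alone gave 0.0915. Without replicate 3 and without a block, 5 of 7 members were called, where 41.3% of all genes were: Irf7 rose by 1.17 (adjusted p = 0.00910), Irf9 by 0.55 (adjusted p = 0.0134) and Jak1 by 0.21 (adjusted p = 0.0240), and Tyk2 and Ifnar2 fell (-0.32, adjusted p = 0.0378, and -0.31, adjusted p = 0.00725). Without scramble replicate 3 alone and without a block, the log2 change was 0.86 for Irf7 (adjusted p = 0.511) and 0.44 for Irf9 (adjusted p = 0.559). With all libraries and no block, Tyk2 lay below control in every scramble library (log2 change -0.30, adjusted p = 0.115) and Jak1 above it (0.17, adjusted p = 0.182), and 33.2% of all genes did not overlap between these groups (16.4% higher and 16.8% lower). Scramble minus control and the other 2 comparisons share libraries and are not independent of one another.

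Irf7 and Irf9 followed each other closely over the 12 libraries. Pearson's r of their log2 CPM was 0.991, and 0.979 for deviations from the group means. Among 11928 genes with a mean of at least 2 CPM, Irf7 was the gene most like Irf9, followed by Usp18 (r = 0.985), a feedback inhibitor, and Apol9a (0.984). The genes most like Irf7 were Irf9, the helicase gene Ddx60 (0.987) and Usp18 (0.981). Stat2 was less close to Irf9 (0.709) and was most like Ifi203 (0.931), Ifi202b (0.928) and H2-D1 (0.924). Ifnar2 was most like Nfkbiz (0.987), Map3k8 (0.985) and Mylip (0.983), which were also lower in replicate 3 of every group. Nfkbiz there was 0.110 to 0.332 times the mean of the other 2 replicates. Ifnar1 was most like Hivep2 (0.908), Jak1 like Nkpd1 (0.945) and Tyk2 like Itm2c (0.964). These values describe shared patterns over libraries that also share their replicate steps.

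**Figure D3:**
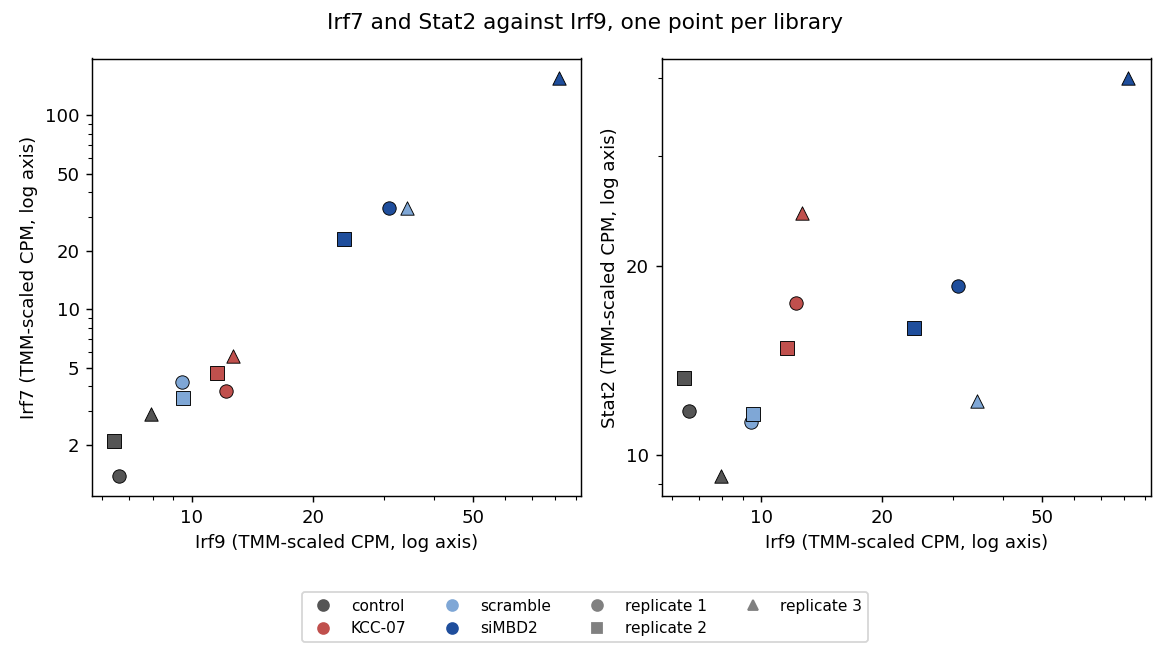
TMM-scaled CPM of Irf7 and Stat2 (y axes) against Irf9 (x axis), all on log axes, with 1 point per library coloured by group and shaped by replicate number. Irf7 climbs with Irf9 from control (1.38 to 2.90 CPM) to siMBD2 (23.0 to 155 CPM), and scramble replicate 3 lies beside siMBD2 replicate 1 for Irf7 but not for Stat2 (12.2 against 18.6 CPM).

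Of the 8 other JAK and STAT genes, 0 passed in either main comparison without a block. With it Jak2 rose (0.48, adjusted p = 0.0153) and Stat5a fell (-0.47, adjusted p = 0.0464) with KCC-07. Over all genes 12.8% rose and 9% fell in that fit. Against control, scramble cells had lower Stat5a (-1.14, adjusted p = 0.00282) and Stat5b (-0.55, adjusted p = 0.0141), which carry prolactin signals in mammary cells. These were 2 of the 8, where 4.08% of all genes fell. Of 7 other IRF genes 5 were tested and none passed in any of the 4 comparisons with or without the block, nor did any of the 4 receptor genes for interferon gamma and lambda. Without replicate 3 and without a block, 3 of the 5 IRF genes and 3 of the 4 receptor genes fell in scramble minus control. Over all genes 2954 of 14935 fell there. With KCC-07 1 receptor gene fell in that fit, where 1583 of all genes did.

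Among genes upstream of Ifnb1, 14 of 15 sensors and adaptors had a log2 change above 0 with KCC-07. Of the 15, 3 rose and 0 fell, where 3.58% of all genes rose and 2.08% fell: Ticam1, the adaptor of TLR3 and TLR4 (1.06, adjusted p = 0.00900), and the kinase genes Ikbke (0.76, adjusted p = 0.0296) and Tbk1 (0.36, adjusted p = 0.0329), whose products phosphorylate IRF3 and IRF7. Ticam1 was at 12.2, 13.5 and 13.9 CPM in control and at 22.5, 23.5 and 36.7 CPM with KCC-07, without overlap. The list's median log2 change was 0.22, beside 0.02 over all genes, of which 7731 of 14935 were above 0. Without the libraries of replicate 3 and without a block 9 rose and 0 fell, where 2250 of 14935 genes rose and 1583 fell. With the block 7 rose, where 12.8% of all genes did, among them the RNA sensors Ddx58 (0.69, adjusted p = 0.00319) and Ifih1 (1.05, adjusted p = 0.0021). With siMBD2 0 passed without a block, 6 had an unadjusted p below 0.05, 8 of 15 were above 0 and the median was 0.01. Over all genes 786 of 14935 had such a p and 7606 were above 0. In all 3 replicate pairs 7 of the 15 were higher and 4 were lower, against 12 and 1 with KCC-07. How many of all genes had such pairs was not counted. With the block 4 rose, where 0.422% of all genes did: Ddx58, Dhx58, Ifih1 and Zbp1. Ticam1 was not among them (-0.03), and its difference between compound and knockdown was 1.08 without a block (adjusted p = 0.0793) and 1.05 with it (adjusted p = 0.0209). With scramble against control Cgas (0.66, adjusted p = 0.00842) and Tbk1 (0.47, adjusted p = 0.00933) rose, 2 of 15 where 4.71% of all genes did. Ikbke, Cgas and Dhx58 overlap genes on the opposite strand.

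Inhibitors of the pathway did not pass in either main comparison without a block. Of 13 such genes, Usp18, which removes ISG15 and blocks IFNAR2, went from 0.263, 0.200 and 0.116 CPM in control and 0.512, 0.637 and 1.04 CPM with KCC-07 to 0.534, 0.634 and 8.82 CPM with scramble and 7.89, 5.34 and 58.0 CPM with siMBD2. With the block Usp18 rose by 3.11 with siMBD2 (adjusted p = 0.00273) and by 1.87 with KCC-07 (adjusted p = 0.0234), where control counts were 9, 6 and 4 reads. The phosphatase gene Ptpn11 also rose with KCC-07 under the block (0.26, adjusted p = 0.0440). With the block 2 of the 13 thus rose with KCC-07, where 12.8% of all genes did, and 1 with siMBD2, where 0.422% did. Without replicate 3 and without a block, 0 of the 13 passed with KCC-07 and 1 with siMBD2, where 25.7% and 1.08% of all genes did. Against control, scramble cells had lower Ptpn6 (-0.53, adjusted p = 0.0166) and higher Ptpn11 (0.44, adjusted p = 0.0371), both genes of phosphatases. Over all genes 4.08% fell and 4.71% rose there. With the shared block 3 of the 13 rose and 1 fell, where 7.39% of all genes rose and 6.42% fell. Among them Usp18 rose by 3.45 (adjusted p = 0.0300) and Socs3 by 1.14 (adjusted p = 0.0310). Without replicate 3 and without a block 4 rose and 2 fell, where 3218 of 14935 genes rose and 2954 fell.

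Target genes of ISGF3 lay mostly above their controls in each comparison. Of 32 listed, 31 were tested. With KCC-07 0 passed without a block, 5 had an unadjusted p below 0.05, 27 were above 0 and the median log2 change was 0.72. With siMBD2 0 passed, 17 had an unadjusted p below 0.05, all 31 were above 0 and the median was 1.52. Over all 14935 genes tested, 3744 with KCC-07 and 786 with siMBD2 had an unadjusted p below 0.05. Above 0 were 7731 and 7606 of them, and the medians were 0.02 and 0.00. With the block 16 rose with KCC-07, where 12.8% of all genes did, and 20 with siMBD2, where 0.422% did, and 0 fell in either. Without replicate 3 and without a block, 13 rose with KCC-07, where 2250 of 14935 genes did, and 22 with siMBD2, where 82 did.

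Rsad2, the antiviral enzyme viperin, had a log2 change of 3.31 with KCC-07 (adjusted p = 0.0537 without the block and 0.000221 with it), from 1.82, 1.60 and 0.754 CPM to 14.7, 14.6 and 12 CPM. Isg15, a ubiquitin-like protein gene, stood at 17.1, 17.3 and 74.1 CPM with scramble and at 55.2, 46.9 and 231 CPM with siMBD2, and with the block it rose by 1.59 (adjusted p = 0.000699). The difference between compound and knockdown passed with the block for 12 targets, where 6.9% of all genes did, 9 with the larger value in siMBD2 (Oasl2 -1.54, adjusted p = 0.00273) and 3 with the larger value in KCC-07 (Rsad2 2.21, adjusted p = 0.00423). Without a block 0 passed, and 0 had an unadjusted p below 0.05, where 2174 of 14935 genes did.

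With scramble against control 5 targets rose and 0 fell without a block, where 4.71% of all genes rose, with a median of 1.91 beside -0.03 over all genes: Rsad2 (4.40, adjusted p = 0.0166), Oasl1, Ifit1, Oas1a and Bst2. The median difference within a replicate pair was 0.67, 0.31 and 3.11 for pairs 1, 2 and 3, against 1.31, 1.22 and 1.56 for siMBD2 minus scramble and 0.80, 0.49 and 1.09 for KCC-07 minus control. With the shared block 10 rose, where 7.39% of all genes did. Without replicate 3 and without a block the median was 0.48, beside -0.03 over all genes. There 14 of 31 targets rose and 0 fell, where 3218 of 14935 genes rose and 2954 fell. Oas1a and Oas1g are near-identical, so counts could be split between them.

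**Figure D4:**
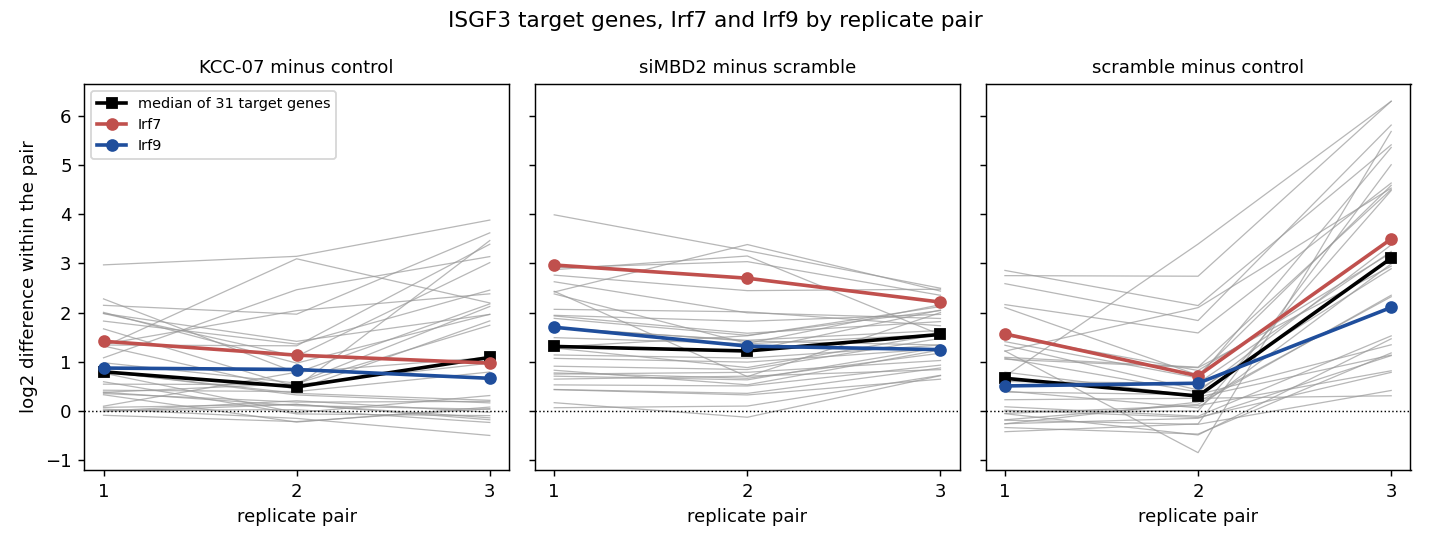
Log2 differences within replicate pairs (y axis) for pairs 1, 2 and 3 (x axis), with a grey line per ISGF3 target gene, black squares at the median of the 31 targets, and red and blue points for Irf7 and Irf9. In siMBD2 minus scramble the median stays between 1.22 and 1.56, and in scramble minus control it is 0.67 and 0.31 in pairs 1 and 2 and 3.11 in pair 3.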

How the data were processed

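Polyadenylated RNA of 12 libraries was read on a NovaSeq X, as the labels' protocols give it. The authors deposited raw read counts of 55335 genes as whole numbers. Per the submitters' processing notes DRAGEN, DESeq2 1.44.0 and the build mm10 (GRCm38.p6) were used, without the role of each. The aligner, the annotation and the strand setting are not given in the sources used here. Counts of genes that overlap another gene are therefore uncertain.

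The counts were filtered with filterByExpr (minimum count 10, minimum total 15), scaled by TMM and fitted with edgeR 4.0.16 in R 4.3.3 (glmQLFit, glmQLFTest) with 1 mean per group and 8 residual degrees of freedom. Benjamini-Hochberg adjustment ran over 14935 genes with a threshold of 0.05. An adjusted p from edgeR is meant throughout unless another tool is named. The scripts were tested on simulated counts with known changes in siMBD2 minus scramble, without and with a replicate block. That simulation held no step between replicates and did not cover the other comparisons. An exact permutation test of 3 against 3 libraries cannot go below 0.1 and was not used.

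The labels' batch tag names biological replicate 1, 2 or 3 and was taken as the pairing, as a block within each arm (4 residual degrees of freedom) or shared by all groups for scramble minus control (6). For libraries of the same number, deviations from group means had r = 0.27, 0.28 and 0.48 (control and KCC-07), 0.09, 0.15 and 0.42 (scramble and siMBD2), and 0.07, 0.02 and 0.13 (control and scramble). Replicate 3 stood apart from the others in the first 2 of these pairs of groups, but replicates 1 and 2 did not match by number. There r was 0.30 for control 1 with KCC-07 2, and 0.21 and 0.18 for scramble 1 with siMBD2 2 and scramble 2 with siMBD2 1. For control and scramble, replicate 3 hardly stood apart, as r was 0.10 for control 1 with scramble 2. The pairing of replicates 1 and 2 therefore rests on the labels alone. In the names of the control and KCC-07 libraries the third replicate is numbered 4, although its batch tag says 3, so whether the arms shared batches is unclear and the shared block is uncertain.

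The members and gene lists were chosen with earlier results of these data known. The 8 genes and Mbd2 are named throughout. From each list the genes with the smallest adjusted p (4 for KCC-07, 2 for other comparisons) or past the threshold in an siRNA comparison could be named, and for each member the 3 genes with the highest r. Irf1, and the reads of Ifna4, were named after their values were seen. Alternatives were other scaling, filters, the block, 2 groups alone, DESeq2 1.42.0 and left-out libraries. Gene positions are from GENCODE M21 (54587 of the identifiers matched). A gene that the lists count is not reported here.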

Additional observations from a re-analysis of the deposited data

Results flagged for a closer look

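The difference between the Irf7 change with KCC-07 and that with siMBD2, tested as an interaction with the replicate number as a block, was -1.42 on the log2 scale (adjusted p = 0.0161, edgeR quasi-likelihood test). The knockdown had the larger change in each of the 3 replicate pairs (pair folds of 7.93, 6.60 and 4.64 against 2.75, 2.24 and 1.99). The call was absent without the block (-1.21, adjusted p = 0.687) and lost with replicate number 1 or 2 dropped (0.142 and 0.178). Leaving out 1 library at a time without a block moved the value from -3.04 (without scramble replicate 3) to 0.11 (without siMBD2 replicate 3).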

How the results depend on the processing

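Of the 4 comparisons, the main fit called 844 (KCC-07 minus control), 6 (siMBD2 minus scramble), 98 (difference of the 2 effects) and 1313 genes (scramble minus control), and 1, 0, 0 and 0 of 7 members. In that order, the replicate block called 3251, 112, 1030 and 2062 genes and 4, 2, 1 and 1 members, and with it the Ifnar2 difference turned to 0.0056. DESeq2 called 1874, 85, 617 and 2299 genes, with 2 members for KCC-07 and 1 for scramble. Without the libraries whose batch tag is 3 (numbered 4 in the names of the drug arm) the counts were 3833, 162, 1589 and 6172 genes and 4, 2, 2 and 5 members, and Stat2 turned to -0.12 in scramble minus control. Without a filter on low counts 0 members passed for KCC-07 and 1 for scramble, with 176 genes for the difference.

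With the 2 groups alone, 1 gene and 0 members passed for KCC-07 and 171 genes for siMBD2. With the 2 groups alone and the replicate block, 394 genes and 0 members passed for KCC-07, 2753 genes and 4 members for siMBD2, and 332 genes for scramble. Leaving out 1 library at a time gave 391 to 2134 genes and 0 to 2 members for KCC-07, 2 to 3 genes for siMBD2, 11 to 351 genes for the difference, and 316 to 3125 genes and 0 to 1 members for scramble. Chosen after seeing the data, the blocked fit without each replicate number gave 0 to 4, 1 to 2, 0 to 2 and 0 to 4 members.

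Log2 changes that changed sign when 1 library was left out ranged for Ifnar1 from -0.035 to 0.12 (KCC-07), -0.11 to 0.011 (siMBD2), -0.0023 to 0.16 (difference) and -0.12 to 0.041 (scramble), and for Ifnar2 from -0.28 to 0.20, -0.15 to 0.14 and -0.26 to 0.21 (KCC-07, siMBD2, difference). The difference ranged from -3.04 to 0.11 for Irf7, -1.47 to 0.17 for Irf9 and -0.60 to 0.16 for Stat2, and Stat2 with scramble from -0.10 to 0.16. The cause of these changes was not tested. Of the values of single members and comparisons, 26 reversed, 28 passed the threshold newly, 7 lost it, and 359 kept direction and side.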
